A study of Mus musculus with 16 samples.

Results

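The guanylate-binding proteins (GBPs) examined here were the 8 mouse genes *Gbp2*, *Gbp3*, *Gbp4*, *Gbp5*, *Gbp6*, *Gbp7*, *Gbp8* and *Gbp9*, chosen by their symbols from the 32285 genes listed in every file. They were read in single-nucleus RNA-seq of the hippocampus from 16 male mice, 1 mouse per library and 4 libraries per group. Wild-type (WT) C57BL/6 mice, aged 2 months and 23 days, and mice with a germline deletion of *Ifnar1* in all cells (knockout, KO), aged 3 months and 3 days, had been given either vehicle or repeated injections of DMXAA, an agonist of mouse STING. *Ifnar1* encodes 1 chain of the type I interferon (IFN-I) receptor. Genotype coincided with age and cohort, so the 3 cannot be told apart in a comparison of KO with WT mice. All values come from unique molecular identifiers (UMIs), which count RNA molecules, and are given as CPM, the UMIs of a gene scaled to the same total of UMIs in every library and class. In all 4 groups the tissue was the right hippocampus, from nuclei sorted by their DNA stain.

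GBPs are interferon-inducible GTPases of the dynamin superfamily. They assemble on the vacuoles of intracellular pathogens and on bacterial surfaces, and they are linked to inflammasome activation. Their genes are classical targets of the interferon receptors. Promoter motifs through which IFN-γ and IFN-I act on such genes are the gamma-activated sequence (GAS) and the IFN-stimulated response element (ISRE). Neither motif is read here as a mark of a single interferon type.

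The members lie in 2 gene clusters. In GENCODE M21 on GRCm38, *Gbp5* (142493978 to 142522344), *Gbp7* (142530342 to 142550149), *Gbp3* (142560026 to 142573209) and *Gbp2* (142620602 to 142638008) follow each other on the plus strand of chromosome 3. *Gbp8* (105014150 to 105139540), *Gbp9* (105077630 to 105139539), *Gbp4* (105115767 to 105139586) and *Gbp6* (105270702 to 105293698) lie on the minus strand of chromosome 5. *Gbp8*, *Gbp9* and *Gbp4* overlap on that strand, and 50.6% of the *Gbp8* span, 0% of the *Gbp9* span and 0.193% of the *Gbp4* span lie outside another coding gene. Intronic reads from the shared stretches cannot be assigned to 1 of these 3 genes, and their counts are uncertain. *Gbp6* shares 37.9% of its exonic 90-base words with *Gbp10*, so its counts are uncertain too. For the other 7 members at most 5.67% of such words occur in another Gbp gene.

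Upstream sequences were printed because both motifs that link these genes to the interferon receptors can be read in them. RefSeq promoter windows, from 250 bases before to 50 bases after a start, were matched for 4 of the 8 members, the 4 on chromosome 3. *Gbp4*, *Gbp6*, *Gbp8* and *Gbp9* were not matched. The ISRE was searched as GAAANNGAAA and the GAS as TTCNNNGAA, on both strands. The capitals below mark matches to either motif on GRCm38.p6. The stretches end before the first GENCODE exon that the window meets, except for *Gbp2*, where the match reaches an annotated exon and 30 bases are shown. The *Gbp5* stretch lies within the GENCODE span of that gene, upstream of its RefSeq start.
Gbp5, chr3:142496684-142496899, plus strand: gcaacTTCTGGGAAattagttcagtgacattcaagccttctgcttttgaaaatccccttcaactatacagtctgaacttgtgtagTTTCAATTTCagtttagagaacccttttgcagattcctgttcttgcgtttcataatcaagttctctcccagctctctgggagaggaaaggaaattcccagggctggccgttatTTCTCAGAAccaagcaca
Gbp7, chr3:142530086-142530335, plus strand: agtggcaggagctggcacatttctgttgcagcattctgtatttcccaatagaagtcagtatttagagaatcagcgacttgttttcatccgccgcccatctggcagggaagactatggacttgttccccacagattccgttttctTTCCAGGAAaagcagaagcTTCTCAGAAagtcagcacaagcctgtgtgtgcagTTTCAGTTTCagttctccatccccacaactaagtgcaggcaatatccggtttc
Gbp3, chr3:142559794-142560025, plus strand: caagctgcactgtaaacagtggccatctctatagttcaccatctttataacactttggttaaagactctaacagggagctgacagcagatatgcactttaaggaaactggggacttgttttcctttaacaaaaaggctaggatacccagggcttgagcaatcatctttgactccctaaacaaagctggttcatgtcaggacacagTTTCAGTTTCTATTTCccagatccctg
Gbp2, chr3:142620594-142620623, plus strand: actcttttagTTTCACTTTCactgtcttaa

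All 4 matched members had an ISRE match, whereas 3.44% of the 32851 RefSeq promoter windows had 1. The match began 165 bases before the start in *Gbp5*, 53 in *Gbp7* and 59 in *Gbp2*. In *Gbp3* matches overlapped, beginning 45 and 39 bases before the start, and a second *Gbp3* window held none. GAS matches were found in *Gbp5*, beginning 245 and 52 bases before the start, and in *Gbp7*, beginning 106 and 87 bases before it, against 8.3% of all windows. The windows of *Gbp3* and *Gbp2* held no GAS match. A match describes the letters only, and binding was not measured.

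**Figure D1:**
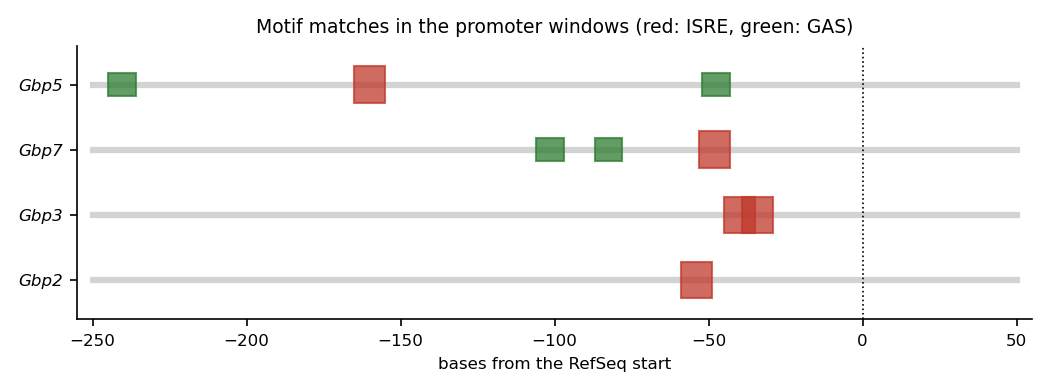
Matches to the ISRE (red) and GAS (green) letters in the RefSeq promoter windows of the 4 chromosome 3 members, by bases from the start (dotted line); grey bars are the windows. Each plotted window holds an ISRE match, and GAS matches appear only in *Gbp5* and *Gbp7*.

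The 16 libraries held 66059561 to 93228638 UMIs, and 108878 of 155084 barcodes were kept as nuclei, 5163 to 9237 per library. Clusters, formed without the members and their pathway genes, were named by markers into 12 classes, and 10.3% of nuclei, with 2.36% of member UMIs, stayed unnamed. *Ifnar1* itself stood at 16.9 to 19.1 CPM with vehicle and 13.6 to 19.6 CPM with DMXAA in WT libraries, and at 10.5 to 12.2 and 10.9 to 12.9 CPM in KO libraries, and counts over the whole gene do not check the deleted part. WT DMXAA replicate 3 stood apart, with 78.9% of the nuclei of 1 oligodendrocyte cluster. Its effect is given where it changes a call. Of 107351 distinct barcodes among the nuclei kept, 1509 occurred in more than 1 library. The family was sparse throughout, with 3680 UMIs of its 8 members in all nuclei kept.

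The summed family was higher in every WT DMXAA library than in any WT vehicle library, and the KO groups overlapped. Summed over members, 719 UMIs (4.68 CPM, pooled) were counted in WT vehicle and 2014 (12.7 CPM) in WT DMXAA nuclei, against 499 (3.35 CPM) and 448 (3.06 CPM) in KO nuclei. Per library, the sum was 3.37 to 5.29 CPM with vehicle and 6.79 to 23.4 CPM with DMXAA in WT mice, and 2.66 to 3.98 and 2.68 to 4.08 CPM in KO mice. In sums over all nuclei, fewer cells of a type and less RNA per cell cannot be told apart. Astrocytes were 11.5% ± 1.87 (SD, n = 4) of nuclei with vehicle and 10.3% ± 2.48 with DMXAA in WT mice, and microglia were 4.90% ± 0.224 and 5.57% ± 0.571.

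*Gbp3* had the largest change of the 8 over all nuclei. It measured 0.462, 0.644, 0.386 and 0.277 CPM in WT vehicle replicates 1 to 4, and 5.37, 2.08, 1.31 and 2.37 CPM in WT DMXAA replicates 1 to 4. The lowest DMXAA library was above the highest vehicle library. In KO libraries *Gbp3* stayed between 0.146 and 0.185 CPM with vehicle and between 0.174 and 0.291 CPM with DMXAA.

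*Gbp6* measured 0.667, 0.335, 0.496 and 0.302 CPM in WT vehicle and 4.17, 1.79, 0.943 and 2.12 CPM in WT DMXAA libraries. *Gbp7*, which has been linked to assembly of the phagocyte NADPH oxidase, measured 1.93, 1.83, 1.98 and 1.31 CPM with vehicle and 7.92, 4.03, 2.31 and 3.88 CPM with DMXAA. Neither gene overlapped between the WT groups, and replicate 1 was the highest and replicate 3 the lowest DMXAA library for both. *Gbp9* measured 0.257, 0.361, 0.441 and 0.252 CPM with vehicle and 1.29, 0.694, 0.596 and 0.850 CPM with DMXAA, also without overlap.

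Of the 4 members not called, *Gbp4*, known as a negative regulator of IRF7, still did not overlap. It measured 0.126 to 0.193 CPM with vehicle and 0.308 to 0.521 CPM with DMXAA in WT libraries. *Gbp5*, a promoter of NLRP3 inflammasome assembly, overlapped at 0.529 to 0.827 and 0.442 to 2.06 CPM. *Gbp2*, which coats parasite vacuoles, overlapped at 0.227 to 0.567 and 0.327 to 0.905 CPM, and *Gbp8* at 0.335 to 0.616 and 0.558 to 1.18 CPM.

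Tested by edgeR's quasi-likelihood method with Benjamini-Hochberg adjustment over all genes, 4 of 8 members rose in WT mice over all nuclei, against 0.468% of 20090 genes called as higher. Genes were called at adjusted p below 0.05 with a log2 fold change beyond 0.1 in size. The log2 fold change was 2.67 ± 0.344 (SE) for *Gbp3* (edgeR adjusted p = 0.000939) and 2.33 ± 0.374 for *Gbp6* (edgeR adjusted p = 0.00543). It was 1.39 ± 0.264 for *Gbp7* (edgeR adjusted p = 0.0218) and 1.43 ± 0.288 for *Gbp9* (edgeR adjusted p = 0.0335). *Gbp4* and *Gbp9* passed the filter on low counts only through the WT DMXAA libraries, so nothing is read from the count of 4 or from the members' median of 1.35 (0.0038 over all genes). Without the filter edgeR called *Gbp3*, *Gbp6* and *Gbp7*, and *Gbp9* missed the threshold (adjusted p = 0.0553). The call of *Gbp7* was lost when any 1 of the 4 WT vehicle libraries was left out and that of *Gbp9* when any 1 of 10 libraries was, and none of the 4 was called when only the 8 WT libraries were fitted (edgeR adjusted p = 0.0556 for *Gbp3* and 0.103 for *Gbp6*). Counting only whether all 4 DMXAA libraries exceeded all 4 vehicle libraries, 5 of 8 members did so in WT mice, against 1.07% of 24002 genes with at least 20 UMIs.

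**Figure D2:**
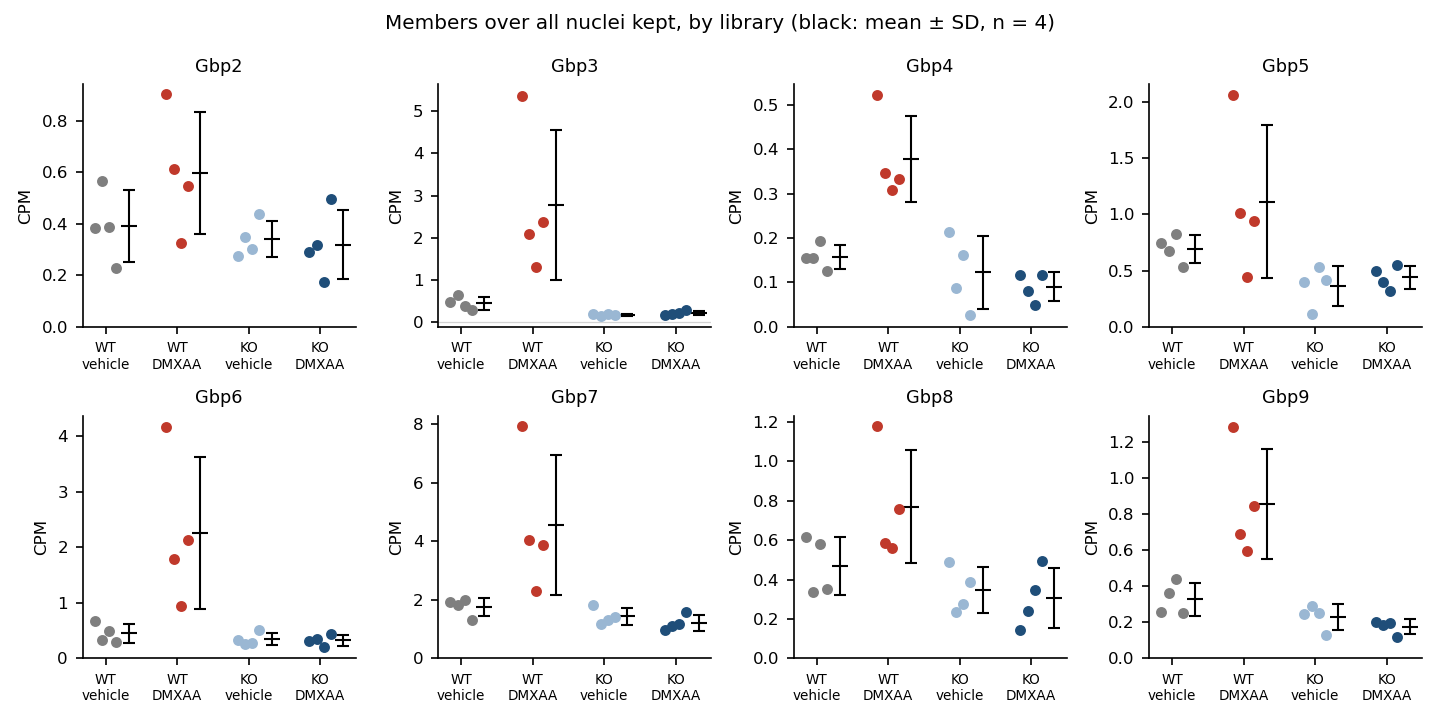
CPM of each member over all nuclei kept, 1 point per library, for WT vehicle (grey), WT DMXAA (red), KO vehicle (light blue) and KO DMXAA (dark blue), with mean ± SD in black (n = 4). The WT DMXAA points of *Gbp3*, *Gbp4*, *Gbp6*, *Gbp7* and *Gbp9* lie above every WT vehicle point, and in KO mice no member separates upward.

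In KO mice, 0 of 8 members were called over all nuclei, where 0% of genes were called in either direction. Log2 fold changes ranged from −0.49 ± 0.481 (*Gbp4*) to 0.31 ± 0.450 (*Gbp3*), with a median of −0.20. None of the 8 reached an unadjusted p under 0.05, and DESeq2 called 0 as well. No member had all 4 KO DMXAA libraries above all 4 KO vehicle libraries, beside 4.74% of genes, so this does not set the 8 members apart.

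The interaction term tests the difference between the genotypes itself, coded as the WT change minus the KO change. It was 2.50 ± 0.566 for *Gbp6* (edgeR adjusted p = 0.179), 2.36 ± 0.573 for *Gbp3* (edgeR adjusted p = 0.231) and 1.72 ± 0.382 for *Gbp7* (edgeR adjusted p = 0.173). edgeR called 0 of 8 members, and 0.0697% of genes in either direction. Its unadjusted p was under 0.05 for 5 of 8 members and for 1325 of 20090 genes. DESeq2 called 3, *Gbp3*, *Gbp6* and *Gbp7*, and edgeR called *Gbp7* without WT DMXAA replicate 3 (adjusted p = 0.0479). The share of all genes that DESeq2 called is not given here, so nothing is read from its count of 3. The median interaction was 1.77 over the members and −0.013 over all genes. A difference between genotypes was therefore not established by edgeR at this depth. All 8 estimates were positive. *Gbp4* and *Gbp9* passed the filter on low counts only through the WT DMXAA libraries. Nothing is therefore read from the 5 of 8, from the members' median or from the shared sign.

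Between the vehicle groups, *Gbp3* was lower in KO than in WT mice, with a log2 difference of −1.05 ± 0.414 (edgeR adjusted p = 0.0471). The other 7 members were not called and lay between −0.57 (*Gbp5*) and 0.14 (*Gbp2*). This is 1 of 8 members, beside 25.9% of all genes called as lower in KO mice, so the members did not exceed the background of this contrast. The *Gbp3* call was lost in 4 of the alternative settings and when any of 12 libraries was left out. With library totals as the only scaling, the median of all genes moved from −0.059 to −0.39 and *Gbp3* to −1.38.

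The family's UMIs came mostly from non-neuronal nuclei. Over the 16 libraries, astrocytes held 28.3%, microglia 25.3%, fibroblasts 17.3% and endothelial cells 7.26% of the 3680 member UMIs. Excitatory neurons (EN), 40.8% of nuclei and 64.2% of UMIs, held 8.72%. WT DMXAA nuclei supplied 2014 of the 3680, and the order differed between groups. In WT vehicle nuclei microglia held 31.8% and astrocytes 23.6%, and in KO vehicle nuclei fibroblasts held the most (27.7%). As pooled CPM of the summed family in WT vehicle mice, endothelial cells stood at 287.6, microglia at 80.2, fibroblasts at 77.5, astrocytes at 15.9, oligodendrocyte precursors at 4.11, choroid plexus epithelium at 3.998, oligodendrocytes at 1.15, inhibitory neurons at 0.818 and EN at 0.492. Ependymal, mural and Cajal-Retzius cells held 7, 3 and 1 member UMIs (34.9, 17.5 and 2.74 CPM) and are given no place in this order. All 7 ependymal UMIs lay in WT vehicle replicate 2. Choroid plexus epithelium and inhibitory neurons held only 7 and 9 member UMIs, so their places are uncertain. In WT vehicle mice the library ranges of microglia (51.6 to 99.0 CPM) and astrocytes (9.77 to 24.1 CPM) were separate. The endothelial class was small, with 333 nuclei in 16 libraries.

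Members differed in where they were found. *Gbp7* had the widest distribution, with WT vehicle means of 49.1 ± 61.9 CPM in endothelial cells, 34.7 ± 8.12 in microglia, 19.8 ± 8.31 in fibroblasts and 8.44 ± 2.03 in astrocytes (SD, n = 4). *Gbp4* had its highest level in endothelial cells, at 45.3 ± 27.9 CPM against 4.21 ± 3.29 in fibroblasts and 1.83 ± 2.20 in microglia, from 7, 8 and 5 of its 24 WT vehicle UMIs, and held 0 UMIs in WT vehicle astrocytes. *Gbp8* and *Gbp9* were at 9.49 ± 4.29 and 10.2 ± 3.78 CPM in microglia and at 0.308 ± 0.445 and 0.236 ± 0.472 in astrocytes, where 1 nucleus held 2 of the 3 *Gbp8* and both of the 2 *Gbp9* UMIs. *Gbp6* held 0 UMIs in WT vehicle endothelial nuclei and measured 11.2 ± 8.85 CPM in fibroblasts. Per kilobase of gene span, *Gbp7* was the highest member in WT vehicle microglia (1.75 CPM per kb, against 0.522 for *Gbp5*) and in WT vehicle astrocytes (0.426, against 0.181 for *Gbp3*). Per exonic kilobase *Gbp7* was also the highest in these microglia (6.18), but *Gbp8* (2.76) stood above *Gbp5* (2.23). By gene span again, values with DMXAA follow. In WT DMXAA astrocytes *Gbp3* came to 1.83 CPM per kb, *Gbp7* to 1.05 and *Gbp6* to 0.903.

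**Figure D3:**
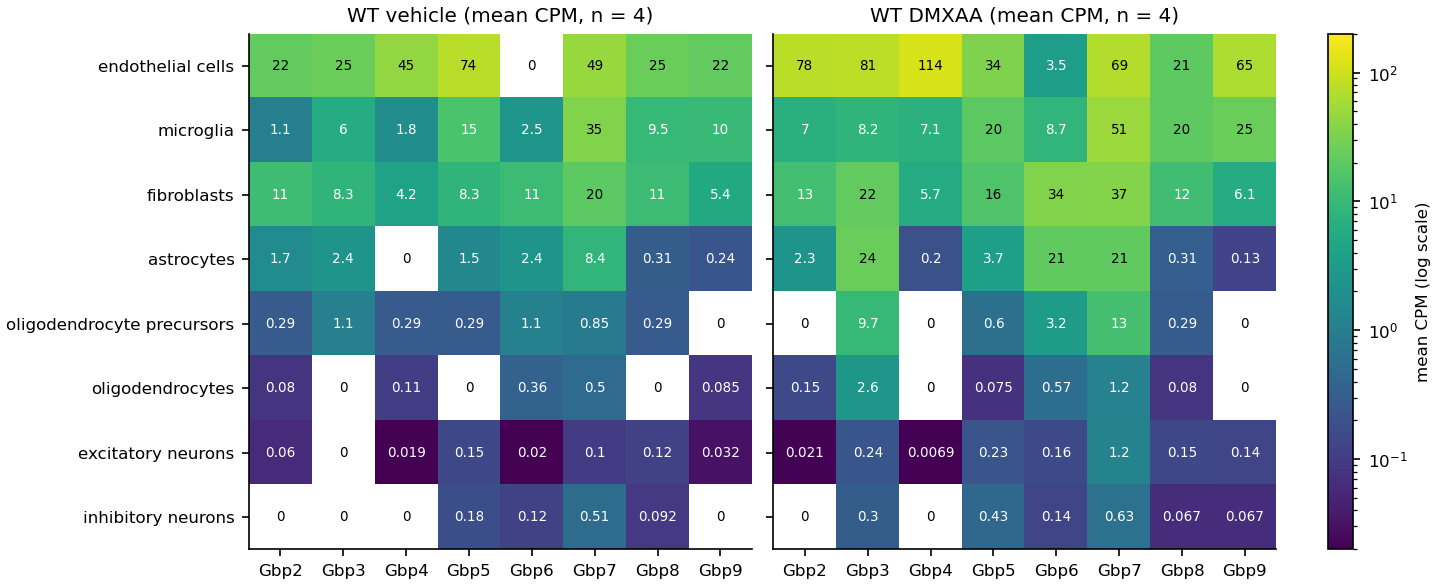
Mean CPM (n = 4 libraries) of each member in 8 nucleus classes of WT vehicle (left) and WT DMXAA (right) mice, on a log color scale with the value printed in each cell; white cells are 0. For most members, though not *Gbp6*, the endothelial row is high and the neuronal rows are low, and *Gbp3* and *Gbp6* in astrocytes go from 2.38 and 2.35 to 24.1 and 20.8.

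In astrocytes *Gbp3* and *Gbp6* rose. *Gbp3* measured 1.42, 4.53, 3.02 and 0.575 CPM in WT vehicle replicates 1 to 4 and 52.0, 20.3, 10.2 and 13.8 CPM in WT DMXAA replicates 1 to 4. *Gbp6* measured 4.25, 2.88, 1.13 and 1.15 CPM with vehicle and 42.8, 17.0, 9.004 and 14.2 CPM with DMXAA. For both genes every DMXAA library lay above every vehicle library, and DMXAA replicate 1 was the highest. *Gbp7* measured 10.8, 7.83, 9.05 and 6.04 CPM with vehicle and 35.7, 19.3, 10.2 and 18.1 CPM with DMXAA, with DMXAA replicate 3 below vehicle replicate 1.

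In astrocytes 3 members passed the filter on low counts and edgeR called 2 of them as higher, where it called 0.224% of 13377 genes. *Gbp3* and *Gbp6* passed the filter through the WT DMXAA libraries, where they are high. Nothing is therefore read from 2 of 3 against that share, or from their p-values with the filter. Tested without the filter, among all genes with a UMI, both were called (edgeR adjusted p = 0.000285 for *Gbp3* and 0.000119 for *Gbp6*). The log2 fold change was 3.43 ± 0.563 for *Gbp3* (edgeR adjusted p = 0.00891) and 3.27 ± 0.490 for *Gbp6* (edgeR adjusted p = 0.00404). It was 1.39 ± 0.286 for *Gbp7*, which missed the threshold (edgeR adjusted p = 0.0534) and passed it without DMXAA replicate 3 (edgeR adjusted p = 0.000912). The call of *Gbp3* was lost without vehicle replicate 4 (edgeR adjusted p = 0.0529). Without DMXAA replicate 1 the log2 fold change of *Gbp3* was 2.77 and that of *Gbp6* 2.68. With only the WT libraries in the fit, neither was called (edgeR adjusted p = 0.257 for *Gbp3* and 0.222 for *Gbp6*). Of the 5 members with at least 20 UMIs, *Gbp3* and *Gbp6* had no overlap between the WT groups, beside 0.783% of genes. Both held more than these 20 UMIs in the WT vehicle libraries alone (24 and 23), so this minimum did not rest on the WT DMXAA libraries. The count is a description and was not tested.

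The other members stayed low in astrocytes. *Gbp5* went from 15 to 32 UMIs in WT mice (ratio of CPM 2.37, 1.25 to 4.71), of which DMXAA replicate 1 held 19, and the ratio was 1.21 (0.53 to 2.73) without it. *Gbp2* went from 16 to 22 UMIs in WT mice, whereas *Gbp4*, *Gbp8* and *Gbp9* held 2, 3 and 1 UMIs with DMXAA. Small rises were not confined to WT mice. *Gbp5* went from 4 to 12 UMIs and *Gbp2* from 7 to 14 in KO astrocytes. There *Gbp4*, *Gbp8* and *Gbp9* held 1, 0 and 0 UMIs with DMXAA. In KO astrocytes *Gbp3* had a log2 fold change of 0.05 ± 0.958, *Gbp6* of 0.97 ± 0.681 and *Gbp7* of −0.46 ± 0.331. None of the 3 was called there (0% of genes called in either direction). The interaction was 3.38 ± 1.19 for *Gbp3*, 2.29 ± 0.912 for *Gbp6* and 1.86 ± 0.438 for *Gbp7*. No gene passed adjustment in that contrast (0%). All 3 members had an unadjusted edgeR p under 0.05, as had 939 of 13377 genes. *Gbp3* and *Gbp6* passed the filter through the WT DMXAA libraries, so nothing is read from the 3 of 3. DMXAA replicate 3 decided 1 call (*Gbp7*, edgeR adjusted p = 0.0224 without it).

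The astrocyte class held all 8 listed astrocyte markers, with a summed level of 13581 to 15427 CPM in WT vehicle and 12351 to 15060 CPM in WT DMXAA libraries. The 8 endothelial markers summed to 3.16 to 8.65 CPM with vehicle and 6.96 to 23.7 CPM with DMXAA in the same nuclei. The part of this shift in the member levels was not tested. The 10 microglial markers summed to 84.8 to 131.8 and 80.6 to 133.1 CPM in astrocytes. The T and NK cell markers *Cd3e*, *Cd3g*, *Cd2* and *Klrd1* were at 0 in both groups.

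*Gbp3* and *Gbp6* UMIs were spread over many astrocytes. A UMI of any member was found in 128 of 3432 WT vehicle and 509 of 3049 WT DMXAA astrocytes. Thinned to 1000 UMIs per nucleus, the share was 1.36% ± 0.370 with vehicle and 6.62% ± 4.46 with DMXAA in WT libraries, and 0.712% ± 0.116 and 0.772% ± 0.0726 in KO libraries. The highest WT vehicle library (1.81%) was below the lowest WT DMXAA library (2.76%). The WT difference of 5.26 percentage points was 3.13 without DMXAA replicate 1. In WT DMXAA astrocytes, 332 nuclei held *Gbp3* or *Gbp6*, 20 of them both, and 63 held more than 1 member. Inhibitory neurons, which held few member UMIs, had a share of 0.0784% ± 0.0911 with vehicle and 0.1802% ± 0.0412 with DMXAA in WT libraries, at median depths of 7022 to 7651 UMIs against 2765 to 3177 in astrocytes.

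In microglia all 8 members were found, and none of the 3 tested was called. *Gbp9* measured 8.25, 15.9, 8.84 and 7.94 CPM in WT vehicle replicates 1 to 4 and 37.9, 25.5, 15.3 and 23.1 CPM in WT DMXAA replicates 1 to 4. Only DMXAA replicate 3 fell below vehicle replicate 2. *Gbp8* measured 15.1, 7.21, 10.3 and 5.29 CPM with vehicle and 32.8, 15.6, 13.5 and 18.3 CPM with DMXAA. *Gbp7* measured 45.4, 36.1, 30.9 and 26.5 CPM with vehicle and 84.7, 56.7, 25.2 and 36.5 CPM with DMXAA, and *Gbp5* 17.9, 15.9, 16.2 and 9.26 against 37.9, 21.3, 8.09 and 12.2 CPM. Both of these overlapped between the groups.

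By edgeR, 0 of the 3 members tested in WT microglia were called, beside 1.29% of 9434 genes called as higher. With 3 members tested, this count of 0 does not set them apart from that share. The log2 fold change was 1.32 ± 0.377 for *Gbp9* (edgeR adjusted p = 0.0992), 0.55 ± 0.371 for *Gbp7* and 0.42 ± 0.477 for *Gbp5*. *Gbp9* alone had an unadjusted p under 0.05, DESeq2 called none, and without DMXAA replicate 3 *Gbp9* was called (edgeR adjusted p = 0.00926). *Gbp9* passed the filter on low counts through the WT DMXAA libraries, where it held 17 to 30 UMIs against 1 to 11 in the other 12. *Gbp5* also needed the WT DMXAA libraries, since 3 of the other 12 reached the level and 4 were asked. Nothing is therefore read from these p-values as support. All 8 members held at least 20 UMIs, and 0 of them separated the WT groups completely, beside 2.2% of genes, which does not set them apart either. *Gbp2* went from 3 to 23 UMIs (ratio of CPM 6.38, 95% interval 1.93 to 33.2), *Gbp4* from 5 to 22 (3.66, 1.35 to 12.4) and *Gbp6* from 7 to 29 (3.45, 1.48 to 9.32), where the intervals cover counting error only. DMXAA replicate 1 held 14 of the 23 *Gbp2*, 13 of the 22 *Gbp4* and 15 of the 29 *Gbp6* UMIs. Without it the ratios were 3.24 (0.81 to 18.6), 1.95 (0.586 to 7.39) and 2.16 (0.817 to 6.33), and all 3 intervals include no change. In simulated counts for this comparison, changes were placed at random among the 9434 genes tested. There 44% of log2 changes of 1 and 96% of log2 changes of 2 were recovered. Recovery of genes as low as the members was not simulated separately. Nothing is read from these shares for *Gbp2*, *Gbp4* and *Gbp6*, which did not reach the test.

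In KO microglia the 3 tested members had log2 fold changes of −0.16 (*Gbp7*), −0.15 (*Gbp9*) and 0.11 (*Gbp5*), and 0 were called (0% of genes in either direction). Of the members that did not reach the test, *Gbp3* went from 2 to 9 UMIs and *Gbp8* from 7 to 15 in KO microglia. *Gbp2* went from 1 to 3 UMIs there, *Gbp4* stayed at 1 and *Gbp6* went from 1 to 0. The interaction was 1.46 ± 0.653 for *Gbp9*, 0.71 ± 0.567 for *Gbp7* and 0.30 ± 0.812 for *Gbp5*, and 0 of 3 were called against 0.127% of genes. The share of microglia with a member UMI at 1000 UMIs was 6.54% ± 1.87 with vehicle and 12.6% ± 5.92 with DMXAA in WT libraries, and 4.84% ± 1.598 and 4.53% ± 1.52 in KO libraries. The WT difference of 6.07 percentage points was 3.36 without DMXAA replicate 1. The 10 microglial markers were all present, at a summed 12343 to 13083 CPM in WT vehicle and 7240 to 12360 CPM in WT DMXAA libraries. The class also held the 8 border macrophage markers, at 939.7 to 1658 CPM with vehicle and 783.7 to 1027 CPM with DMXAA. The 10 EN markers in it summed to 401.1 to 539.3 CPM with vehicle and 328.5 to 1041 CPM with DMXAA, and the part of these shifts in the member levels was not tested.

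In EN the members were low in both WT groups. *Gbp7* measured 0.0778, 0.038, 0.297 and 0 CPM in WT vehicle replicates 1 to 4 and 2.86, 1.04, 0.575 and 0.515 CPM in WT DMXAA replicates 1 to 4, a total of 10 and 123 UMIs. Every DMXAA library exceeded every vehicle library. *Gbp3* held 0 UMIs in all 4 WT vehicle libraries and 23 with DMXAA, at 0.556, 0.292, 0.0548 and 0.0515 CPM by replicate, at least 7.55-fold higher against a floor of 3 UMIs over the group, and *Gbp6* went from 2 to 16 UMIs (ratio of CPM 7.88, 95% interval 1.85 to 70.6). Without DMXAA replicate 1, which held 67 of the *Gbp7* and 13 of the *Gbp3* UMIs, the ratio of *Gbp7* went from 12.1 to 7.13 and *Gbp3* was at least 4.24-fold higher. These 3 of the 6 members with at least 20 UMIs did not overlap, beside 0.825% of genes. *Gbp3* and *Gbp6* reached 20 UMIs through the WT DMXAA libraries, so nothing is read from that count.

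*Gbp7* was the only member tested in EN, with a log2 fold change of 3.62 ± 0.694 (edgeR adjusted p = 0.0697), so 0 of 1 was called, where 0.114% of 17585 genes were. It passed the filter on low counts through the WT DMXAA libraries, since the other 12 held 0 to 7 UMIs each. Its log2 fold change was 2.89 without DMXAA replicate 1 and 4.84 without vehicle replicate 3. DESeq2 (adjusted p = 0.00209) and edgeR without the filter on low counts (adjusted p = 0.0369) called it, and so did edgeR with doublets kept (adjusted p = 0.0274) and without vehicle replicate 3 (adjusted p = 0.0318), DMXAA replicate 3 (adjusted p = 0.0229) or DMXAA replicate 4 (adjusted p = 0.0308). Nothing is read from the calls made with the filter. In KO EN its log2 fold change was −0.53 ± 1.05 (0% of genes called in either direction), and the interaction was 4.15 ± 1.32 and not called, against 0.0227% of genes. The share of EN with a member UMI at 1000 UMIs was 0.0490% ± 0.0330 with vehicle and 0.226% ± 0.169 with DMXAA in WT libraries, near the inhibitory neuron shares given above, at median depths of 7508 to 8491 UMIs with DMXAA. The WT difference of 0.177 percentage points was 0.0952 without DMXAA replicate 1. In WT DMXAA libraries the counts of *Gbp7*, *Gbp3* and *Gbp6* were 123, 23 and 16 in EN, 192, 213 and 186 in astrocytes and 165, 29 and 29 in microglia. The 8 astrocyte markers summed to 680.9 to 799.4 CPM in WT vehicle EN and 576.9 to 701.2 CPM in WT DMXAA EN, and the 10 microglial markers to 76.0 to 98.6 and 38.9 to 130.8 CPM. The part of RNA from other cells in the EN values was not tested.

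**Figure D4:**
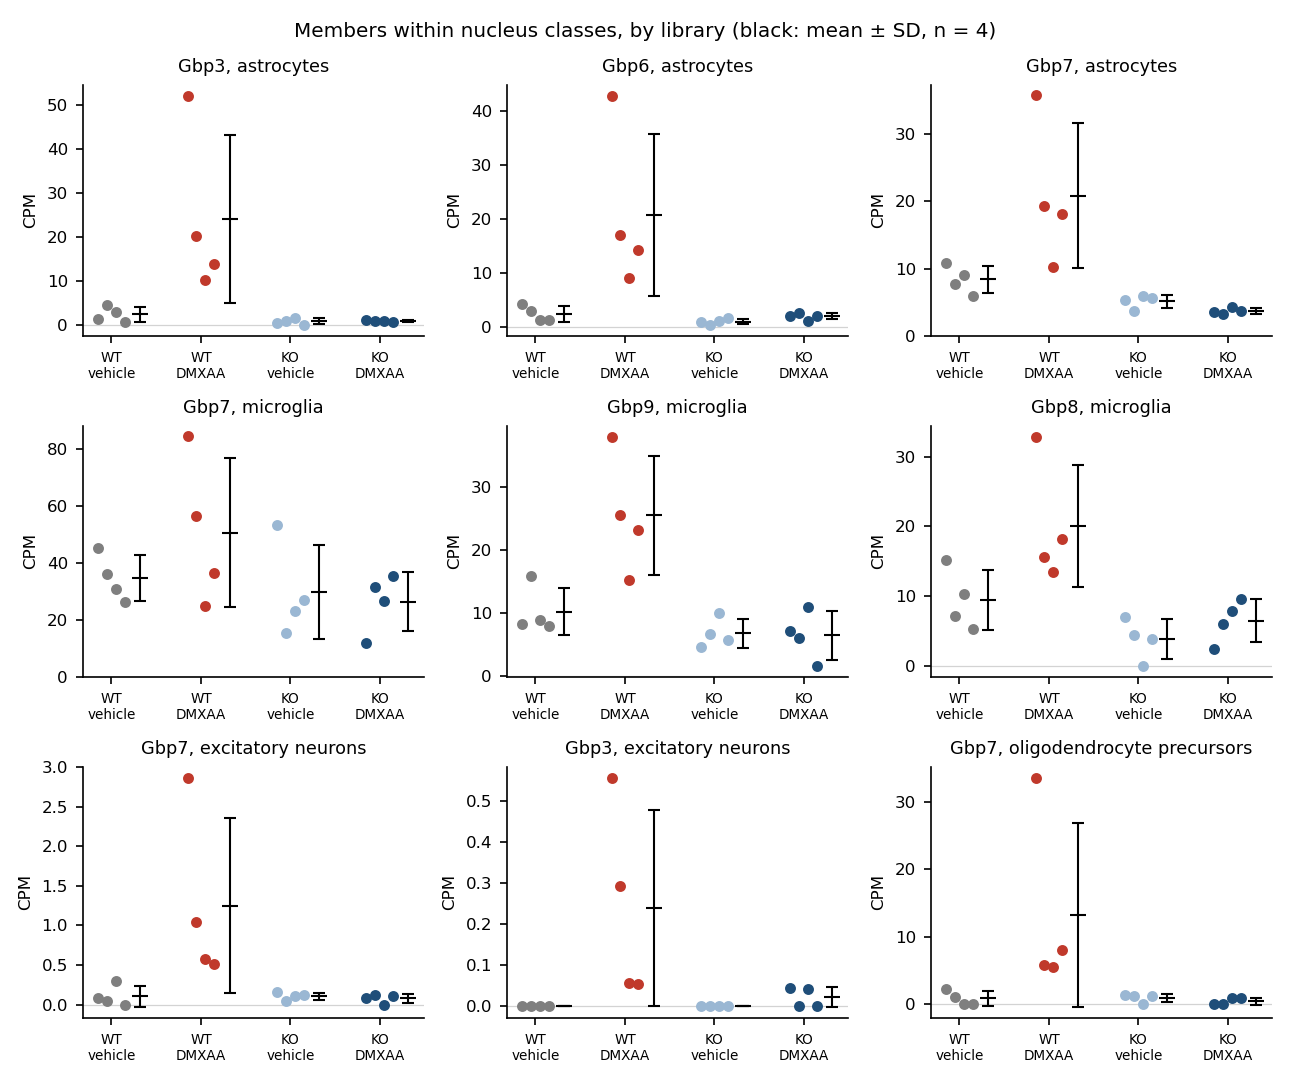
CPM of 9 member and class pairs, 1 point per library, for WT vehicle (grey), WT DMXAA (red), KO vehicle (light blue) and KO DMXAA (dark blue), with mean ± SD in black (n = 4). *Gbp3* and *Gbp6* in astrocytes, *Gbp7* and *Gbp3* in EN and *Gbp7* in oligodendrocyte precursors separate the WT groups completely, while *Gbp7* in astrocytes and the microglial panels overlap.

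Other classes were described from smaller counts. In oligodendrocyte precursors *Gbp7* measured 2.29, 1.12, 0 and 0 CPM in WT vehicle and 33.6, 5.77, 5.47 and 8.03 CPM in WT DMXAA libraries (3 and 45 UMIs, ratio of CPM 15.7, 95% interval 5.04 to 79.0). *Gbp3* went from 4 to 33 UMIs (8.64, 3.07 to 33.6) but overlapped. Without DMXAA replicate 1 the ratio was 7.80 (2.26 to 41.6) for *Gbp7* and 5.85 (1.91 to 23.9) for *Gbp3*. Neither passed the filter on low counts. 1 of the 2 members with at least 20 UMIs was without overlap, as were 0.917% of genes, and both reached 20 UMIs through the WT DMXAA libraries, so nothing is read from that count. When the filter was dropped, edgeR called both (adjusted p = 3.17e-05 for *Gbp7* and 0.0116 for *Gbp3*), and DESeq2 called neither.

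In oligodendrocytes *Gbp3* held 0 UMIs in WT vehicle and 32 in WT DMXAA libraries, 5.33, 0.966, 0.963 and 3.28 CPM by replicate, at least 9.75-fold higher against the floor of 3 UMIs and at least 6.70-fold higher without DMXAA replicate 1. Of 3 members with at least 20 UMIs it was the 1 without overlap, as were 0.472% of genes, but 32 of its 33 UMIs in all 16 libraries lay in WT DMXAA, so nothing is read from that count. *Gbp7* and *Gbp6* overlapped there. Of the 32 *Gbp3* UMIs, 2 lay in the cluster dominated by WT DMXAA replicate 3. In choroid plexus epithelium *Gbp7* went from 5 to 21 UMIs (ratio of CPM 3.25, 1.19 to 11.0), with no nuclei of the class in vehicle replicate 4 and 1 UMI in DMXAA replicate 3.

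In fibroblasts *Gbp6* measured 23.1, 1.69, 10.6 and 9.56 CPM in WT vehicle and 58.7, 32.1, 21.8 and 24.9 CPM in WT DMXAA libraries. Its log2 fold change was 1.68 ± 0.521, that of *Gbp7* was 0.98 ± 0.470, and 0 of 2 were called where 0% of 8935 genes were. *Gbp6* had an unadjusted p of 0.00458, and DESeq2 called neither. It passed the filter on low counts through the WT DMXAA libraries, so nothing is read from that p. Its log2 fold change was 2.36 without vehicle replicate 1, and that of *Gbp7* was 0.39 without DMXAA replicate 1. In KO fibroblasts and for the interaction 0 of 2 were called as well, with 0% of genes called in either. In endothelial cells no member passed the filter, and WT vehicle replicates 1 and 2 and WT DMXAA replicate 1 held under 20 endothelial nuclei each. *Gbp3* measured 0, 34.4, 45.0 and 21.5 CPM with vehicle and 60.2, 70.9, 66.0 and 127.4 CPM with DMXAA in WT libraries, from 4 and 19 UMIs, with 1 UMI behind the 60.2 CPM of DMXAA replicate 1 (ratio of CPM 2.89, 0.96 to 11.7). *Gbp4* measured 38.6, 34.4, 22.5 and 85.9 CPM with vehicle and 180.6, 85.1, 84.9 and 106.2 CPM with DMXAA in WT libraries, overlapping narrowly, from 7 and 23 UMIs, 3 of them in DMXAA replicate 1 (ratio of CPM 2.00, 0.830 to 5.51). *Gbp5* was at 74.0 ± 39.9 and 34.2 ± 27.6 CPM, from 10 and 11 UMIs. These groups held 72 and 81 endothelial nuclei, and the intervals of *Gbp3* and *Gbp4* include no change.

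**Figure D5:**
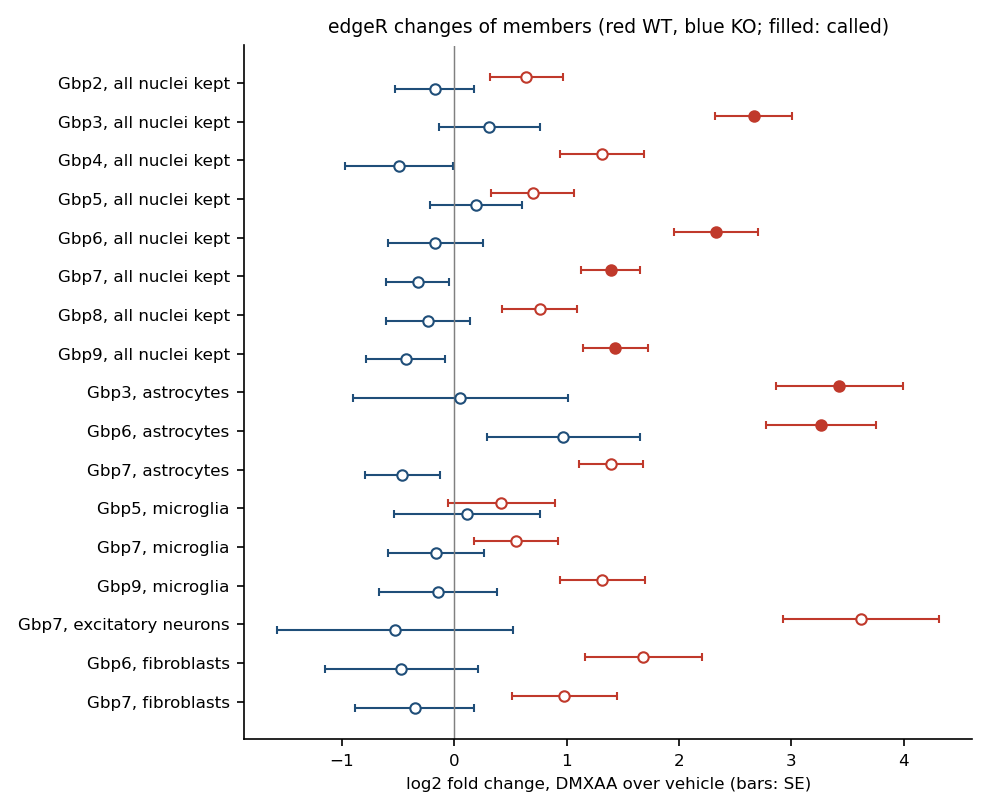
Log2 fold change of DMXAA over vehicle by edgeR, with SE, for every member that passed the filter on low counts in a class, in WT (red) and KO (blue) mice; filled points were called. The 6 filled points are WT changes of *Gbp3*, *Gbp6*, *Gbp7* and *Gbp9* over all nuclei and of *Gbp3* and *Gbp6* in astrocytes, and no KO point is filled.

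Whether 1 class changed more than another was tested within libraries for *Gbp7*, the only member tested in all 3 classes. Its WT change was smaller in microglia than in EN by 2.79 ± 0.539 on the log2 scale (0.45 and 3.24), which missed the threshold by limma-trend (adjusted p = 0.0871). The difference between microglia and astrocytes was −0.81 ± 0.182 (limma-trend adjusted p = 0.352) and that between astrocytes and EN was −1.98 ± 0.510 (limma-trend adjusted p = 0.934). None of these differences was established over all libraries, and the first was called without WT vehicle replicate 3 (limma-trend adjusted p = 0.0243). *Gbp7* could be tested in EN only through the WT DMXAA libraries, where it is high, so nothing is read from the differences that involve EN.

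The genes around the family moved in part. Of the list of receptors and signal transducers, 5 of 17 rose over all WT nuclei, where 0.468% of all genes did, and 5 of 15 in microglia (1.29%), 5 of 14 in astrocytes (0.224%) and 3 of 17 in EN (0.114%), and 0 fell. Among those with the largest change in microglia were *Usp18*, a brake on IFN-I receptor signaling (3.42 ± 0.56), *Nlrc5*, an activator of MHC class I genes (3.02 ± 0.46) and *Stat2*, a transcription factor of the IFN-I response (2.26 ± 0.34). *Irf1*, a transcription factor of the IFN-γ response, was not called (0.84 in microglia and 0.50 over all nuclei).

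Immunity-related GTPases, which act with GBPs on pathogen vacuoles, rose in 3 of 6 tested over all WT nuclei, beside the same 0.468%. In microglia 2 of 3 rose, beside 1.29%, *Gm4951* (2.18 ± 0.34) and *Irgm1* (1.73 ± 0.38). Of the ATG8 conjugation machinery, which directs GBPs to vacuoles, 0 of 10 were called over all nuclei and 0 of 8 in microglia. Of the inflammasome genes linked to GBPs, 0 of 8 were called in either. Among all genes, 98 of 20090 and 198 of 9434 were called in either direction, so these counts of 0 do not set the 2 lists apart. Median log2 changes of these 2 lists were −0.023 and 0.29 over all nuclei. *Gvin1* was the only tested gene of 3 listed dynamin-related genes and rose (1.75 ± 0.37). In this and the preceding paragraph, some listed genes did not pass the filter on low counts in every class. Whether the tested ones passed it through the WT DMXAA libraries was not examined, so nothing is read from the counts of genes that rose. In KO mice 0 genes of these lists were called in any class. There 0% of all genes were called in either direction, so this 0 does not set the lists apart.

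Of the Gbp genes outside the 8, *Gbp2b* held 3 and 4 UMIs in WT nuclei with vehicle and DMXAA and 1 and 0 in KO nuclei, and *Gbp10* 5 and 4, and 1 and 0. *Gbp11* was not analysed here. The gene for IFN-γ, *Ifng*, held 1 and 0, and 1 and 1, and *Ifnb1*, *Ifna2* and *Ifna4* held 0 in all 4, at or below the floor of 3 UMIs.

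Across the 16 microglial libraries, the genes most like the mean log2 CPM of the 3 tested members were *Ms4a6c* (Pearson r = 0.959), *Cdk12* (0.913), *Phf11d* (0.909), *Stx16* (0.898) and *H2-Q4* (0.898), of 9431 genes ranked. These libraries share group and depth differences, and the values are a description. Of the 3 members in the mean, *Gbp5* and *Gbp9* passed the filter on low counts only with the WT DMXAA libraries.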

How the data were processed

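The deposited files hold raw UMI counts per gene and barcode, which the authors made with Cell Ranger on mm10, counting reads on pre-mRNA. The submitters' processing notes name version 3.1.0, whereas the file headers name 6.1.2. No normalization had been applied. Nuclei with 200 to 4000 genes and at most 5% mitochondrial UMIs were kept, and 9327 called doublets were removed. Leiden clusters (leidenalg 0.10.2, resolution 0.5) were formed without Gbp and pathway genes and named from marker lists, so class names are rebuilt. Counts were summed per library and class and, where a library held at least 20 nuclei of the class, fitted with edgeR 4.0.16 (two-sided quasi-likelihood test, TMM scaling, low counts dropped by filterByExpr) over all 16 libraries in 4 groups, with Benjamini-Hochberg adjustment per class and contrast. CPM by library is given without that minimum. DESeq2 1.42.0, limma 3.58.1 and other filters and scalings were alternatives. The fit was tested on simulated data. The 95% intervals are exact and, like the floor of 3 UMIs, cover counting error only. Class depth was 1961120 to 3722300 UMIs per library in astrocytes, 417676 to 1112700 in microglia and 18523200 to 36494500 in EN. Named were all members, the 4 listed genes of each list changed most in WT microglia, and *Ifng*, *Irf1* and other Gbp genes, except 1 gene that is not reported here. Members and lists were chosen with earlier results of these data known. Replicates are separate mice.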

Additional observations from a re-analysis of the deposited data

Results flagged for a closer look

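In WT vehicle microglia, *Gbp9* in replicate 2 stood at 15.9 CPM, apart from the other 3 libraries at 7.94 to 8.84 CPM. It was the only library set apart in this way among 80 groups of 4 libraries, and chance alone sets about 1 group in 20 apart.

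Barcodes left out for having fewer than 200 or more than 4000 genes or over 5% mitochondrial UMIs, or as called doublets, also held member UMIs, at 5.404 ± 3.604 CPM (SD, n = 4, 3.07 to 10.7) in WT DMXAA against 1.57 ± 0.461 CPM (1.18 to 2.20) in WT vehicle libraries, and at 1.12 ± 0.199 and 0.979 ± 0.115 CPM in KO vehicle and KO DMXAA libraries.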

How the results depend on the processing

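Each result was recomputed with other tools, scalings, filters, nucleus sets and clusterings and with each library left out. Of the values for single members, 14 under other settings and 27 with a library left out lost the call, 9 and 7 gained it, 1 and 17 reversed, and the rest kept direction and side of the threshold. The cause was not tested. Over all WT nuclei 4 members were called, 2 with library totals only, 0 with only the libraries of the contrast and 2 to 4 with a library left out. Over classes, 2 member and class pairs became 4 with DESeq2, 6 without a filter on low counts, 0 with only the libraries of the contrast and 1 to 5 with a library left out. For the interaction, 0 over all nuclei became 3 with DESeq2, and leaving out a library gave 0 to 1 over all nuclei and 0 to 1 in classes. Between vehicle groups 1 became 0 with DESeq2, RLE size factors, no filter or called doublets kept, and 0 to 1 with a library left out. No share of all genes stands beside these counts, so they describe only how the calls depend on the processing. The Gbp7 difference between microglia and EN lay between −3.36 and −2.48 with a library left out.

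In percentage points, the WT rise in astrocytes with a member UMI was 5.26 at 1000 UMIs, 9.95 at 2000 and 13.5 unthinned, that in microglia 6.07 and 10.6 unthinned, and that in EN 0.177, 0.355 and 1.22. The KO difference was −0.304 in microglia and 1.87 at 2000 UMIs, and −0.0182 in EN, −0.0376 at 2000 and −0.111 unthinned. Leaving out a library, chosen after seeing the data for these shares and for ratios of pooled CPM, gave 3.13 to 6.55 in WT astrocytes and 3.36 to 7.93 in WT microglia.

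The Gbp5 interaction in microglia turned from 0.30 to −0.22 with limma-trend. Values that turned when a library was left out were small. For KO mice they were Gbp2 (−0.43 to 0.048), Gbp5 (−0.074 to 0.43) and Gbp6 (−0.32 to 0.071) over all nuclei, Gbp3 in astrocytes (−0.34 to 0.68), and Gbp5 (−0.24 to 0.47), Gbp7 (−0.35 to 0.26) and Gbp9 (−0.58 to 0.21) in microglia. In microglia the Gbp5 WT change (−0.083 to 0.67) and interaction (−0.20 to 0.66) turned too. No paired analysis was possible because replicate numbers were given in accession order and pair no animals. Without the windows beyond 200 bases, the 4 promoters kept their ISRE matches, against 2.27% of windows. Of the members, 5 of 8 in astrocytes and 5 of 8 in microglia did not reach the test. The parts of low level and of depth in this were not tested.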

Other observations

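A few nuclei in vehicle mice held many member UMIs. 1 nucleus of the astrocyte class in WT vehicle replicate 1 held 25 UMIs of 7 members among its 4505 UMIs, with 7 of the 16 *Gbp2*, 7 of the 87 *Gbp7*, 4 of the 23 *Gbp6*, 2 of the 3 *Gbp8* and 2 of the 2 *Gbp9* UMIs of all WT vehicle astrocytes. 1 microglial nucleus in WT vehicle replicate 3 held 16 UMIs of 6 members, *Gbp5* and *Gbp7* with 4 each and *Gbp2* with 2 of the 3 of all WT vehicle microglia. In WT DMXAA astrocytes, where 651 member UMIs were counted, the most in 1 nucleus was 5.

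Among EN clusters of WT DMXAA mice, 64 of the 123 *Gbp7* UMIs lay in the largest cluster, with 5120 of the 12599 nuclei. WT vehicle mice had 1 *Gbp7* UMI in its 5029 nuclei. A smaller EN cluster held 13 *Gbp7* UMIs in 679 WT DMXAA nuclei and 6 in 1531 WT vehicle nuclei. These counts are not scaled to cluster size, so they do not place the highest level in the largest cluster. In microglia, *Gbp8* or *Gbp9* was found in 52 nuclei of WT vehicle and 139 of WT DMXAA mice, and both genes in 0 and 3 of these.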
